A study of Caenorhabditis elegans with 2 samples.

Results

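Binding of HINF-1 was examined at 8 C. elegans genes for replacement and centromeric histone variants, out of 19973 protein-coding and 46890 annotated genes. They were taken by name: the H3.3-like genes his-72, his-71, his-70, his-69 and his-74, the H2A.Z gene htz-1, and the CENP-A genes hcp-3 and cpar-1. HINF-1 (F39B2.1, gene hinf-1) is the worm relative of the human histone H4 gene regulator HINFP. It was mapped by chromatin immunoprecipitation with an anti-GFP antibody in whole young adults of strain RW12232, aged 65 hours after arrest of hatched L1 larvae by starvation. Both biological replicates carry the same CRISPR insertion, F39B2.1::TY1::EGFP::3xFLAG, so that the tagged protein is made from the gene's own locus. The labels' antibody field names F39B2.1 itself, while their description gives anti-GFP. There was 1 group of 2 samples, and the control experiment that the labels name was not used here. In whole animals, binding in fewer cells and weaker binding per cell cannot be told apart.

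Core histones are made in S phase to package newly copied DNA, whereas replacement variants are made throughout the cell cycle and are put into chromatin independently of DNA replication. H3.3 takes the place of H3 at transcribed genes, and H2A.Z takes the place of H2A in nucleosomes beside promoters. CENP-A takes the place of H3 where kinetochores assemble, which in the holocentric chromosomes of worms is along their whole length. The comparison set was the 66 other genes named his- followed by a number, without the linker histone gene his-24. Most of these are the core histone genes proper, and they include the H3-like gene his-73.

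Of the 8 variant genes, 1 had a reproducible HINF-1 peak at its 5' end. This was htz-1. The conservative list holds 567 of the 696 ranked peaks whose global irreproducible discovery rate (IDR) between the true replicates was 0.01 or less. In it, 1.32% of protein-coding genes had a 5' end peak, meaning a summit no farther than 500 bp away. With 8 genes the count of 1 is too small to call the variants richer or poorer in peaks than that. Among the 66 other his- genes 18 (27.3%) had such a peak. A peak at htz-1 was also in the optimal list (630 peaks, background 1.48%) and in the thresholded list of replicate 2 (272 peaks, background 0.666%). It was absent from the thresholded list of replicate 1 (209 peaks, background 0.546%), so of the single replicates only replicate 2 gave the call at htz-1. The centromeric gene hcp-3 had a conservative peak just outside the window, and the H3.3 gene his-72 had a ranked peak in no thresholded list.

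The bases under these 3 peaks and under 5 of the 6 strongest core histone peaks were as follows. They are shown so that the variant peaks described here can be read beside the strong core histone peaks. Each is 101 bases centred on the summit, on the forward strand of WBcel235 (the assembly of ce11, RefSeq sequence), and capitals mark the word GGGACACA or its reverse complement.
htz-1 (chrIV:4445856-4445956): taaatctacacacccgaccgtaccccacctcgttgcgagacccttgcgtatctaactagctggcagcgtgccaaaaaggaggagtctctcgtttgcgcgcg
hcp-3 (chrIII:9617104-9617204): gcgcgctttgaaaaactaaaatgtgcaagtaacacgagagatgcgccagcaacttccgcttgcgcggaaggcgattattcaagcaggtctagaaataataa
his-72 (chrIII:12369064-12369164): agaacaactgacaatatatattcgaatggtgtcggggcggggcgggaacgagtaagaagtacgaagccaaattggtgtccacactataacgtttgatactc
his-37 (chrV:9546965-9547065): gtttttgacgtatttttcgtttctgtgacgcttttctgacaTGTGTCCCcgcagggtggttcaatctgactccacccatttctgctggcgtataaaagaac
his-59 and his-60 (chrIV:7488061-7488161): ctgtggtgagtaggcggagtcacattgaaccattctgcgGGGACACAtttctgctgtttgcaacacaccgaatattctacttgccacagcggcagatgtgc
his-63 and his-64 (chrIV:11406952-11407052): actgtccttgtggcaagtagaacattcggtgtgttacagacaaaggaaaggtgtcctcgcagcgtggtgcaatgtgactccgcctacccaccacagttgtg
his-61 and his-62 (chrIV:7486343-7486443): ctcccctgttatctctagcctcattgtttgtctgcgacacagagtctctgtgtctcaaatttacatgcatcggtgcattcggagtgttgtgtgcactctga
his-5 and his-6 (chrV:8535085-8535185): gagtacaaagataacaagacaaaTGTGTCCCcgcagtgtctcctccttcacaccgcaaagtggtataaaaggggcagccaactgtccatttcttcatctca
The word was in 3 of these 5 core histone windows and was not in those of his-63 and his-64 or of his-61 and his-62, nor in the 3 variant windows. The strongest core histone peak, between his-67 and his-68, is not shown, and its window held the word.

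GGGACACA is a word that an earlier examination of these data picked in the strongest peaks, histone peaks among them, so its presence at core histone genes is a description and not a finding. Searched on both strands within 50 bp of the summit, it occurred at 5 of the 11 distinct conservative peaks at core histone genes, at 0 of the strongest peaks of the 8 variant genes, and at 0.175% of 12590 peaks at protein-coding 5' ends. CGTCCG, a word from the site known for human HINFP, was at 0 of 8 variant peaks, 1 of 11 core histone peaks and 1.47% of the 12590. The E2F-like words TTTGGCGC and TTTCGCGC were at none of the 8 or the 11, and at 0.381% and 0.604% of the 12590. These searches cover exact letters only. The 11 core histone peaks were all conservative, whereas of the 8 variant peaks only that at htz-1 was. The other variant peaks had global IDRs of 0.0511 to 0.701 between the true replicates, so the counts compare unlike peaks. The htz-1 window was rich in G and C, with 56.4% GC and 10 CG pairs, against medians of 39.6% and 4 over the 12590 windows. The window upstream of hcp-3 had 45.5% GC and 8 CG pairs, and that at his-72 had 45.5% and 7. Weak peaks had such values too, with 53.5% and 6 at his-69 and 47.5% and 7 at his-70. The strongest peaks within 500 bp of his-71, his-74, hcp-3 and cpar-1 had 35.6% to 39.6% and 3 to 5. The medians of the 11 core histone windows were 47.5% and 3.

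The H2A.Z gene htz-1 (WBGene00019947, chromosome IV, 4446216 to 4446999, plus strand) encodes the single H2A.Z of the worm. Its peak (chrIV:4445791-4446020) was intergenic, with the summit 310 bp upstream of the htz-1 5' end. The signal value of the authors' peak caller, which has no stated scaling and is compared only within a list, was 86.3. That was rank 124 of 567 conservative peaks, above 78.1% of them and 1.33 times the list's median of 64.7. The global IDR was 0.000772 between the true replicates. In the replicates' own ranked lists the same peak had a signal value of 32.7 (rank 346 of 53566, IDR 0.0129) in replicate 1 and 53.5 (rank 179 of 51539, IDR 0.00139) in replicate 2, with summits 7 bp apart. Both replicates thus placed it in the top 1% of their peaks, and in replicate 1 the IDR stayed above 0.01.

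The htz-1 peak lies between divergent genes. Its summit was 166 bp upstream of wapl-1, which encodes a cohesin release factor, and so lay nearer to wapl-1 than to htz-1. Which of the genes, if either, the binding serves cannot be told apart from position alone. Within 250 bp of the htz-1 5' end there was no conservative peak, and the only ranked peak there, 182 bp downstream in the coding exon, had a signal value of 12.2. A further ranked peak lay 701 bp downstream in the 3' UTR, with 38.2 (rank 3057, IDR 0.156). By signal percentile over the 4 ranked lists, the genes most like htz-1 among 5294 with a peak in all of them were wapl-1, which has the same peak, set-2 and fbxl-2. Their signal values in the list of the true replicates were 86.3, 86.6 and 85.7, and all had a conservative peak. Since they were picked on the signal in these same lists, their nearness to htz-1 was fixed by the choice.

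**Figure D1:**
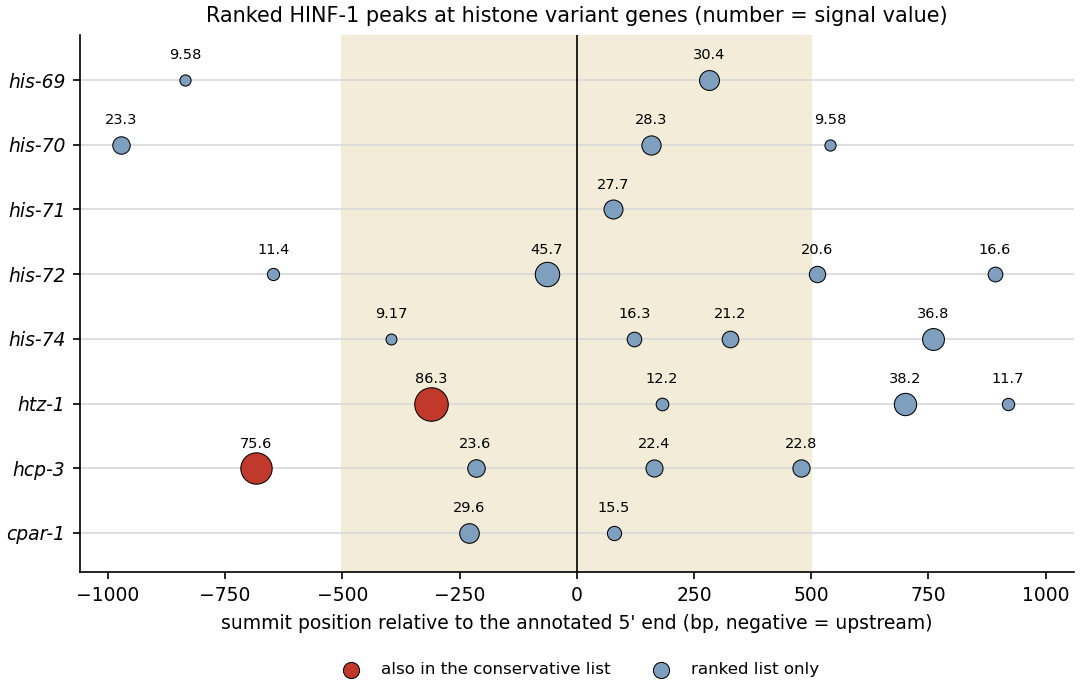
Positions of all peaks of the true replicates' ranked list within 1000 bp of each variant gene's 5' end (x axis, bp, shaded within 500 bp), with circle area and number giving the signal value and red marking peaks also in the conservative list. The 2 red peaks lie upstream, 310 bp from htz-1 (86.3) and 684 bp from hcp-3 (75.6), and the next within the window is the his-72 peak 64 bp upstream (45.7).

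The centromeric genes had no conservative peak within 500 bp, though hcp-3 had one farther out. hcp-3 (WBGene00001831, chromosome III, 9615306 to 9616470, minus strand) encodes CENP-A, on which worm kinetochores are built. The conservative list held a peak 684 bp upstream of its 5' end (chrIII:9617039-9617268) with a signal value of 75.6, rank 183 of 567 and a global IDR of 0.00193. The summit was intergenic, and hcp-3 was the nearest protein-coding 5' end. The next, that of hlh-11, was 2557 bp away. Replicate 1 had this peak at 25.8 (rank 829, IDR 0.036) and replicate 2 at 48.6 (rank 231, IDR 0.00237), where it was also in the thresholded list. As at htz-1, replicate 2 alone passed.

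The summit at hcp-3 lies outside the 500 bp that define a 5' end peak here, and is the nearest thresholded peak to fall outside it, as htz-1 with 310 bp is the one that falls inside. With a window of 1000 bp the count of variant genes with a conservative peak was 2 of 8, against 2.04% of protein-coding genes. Inside the window hcp-3 had 3 ranked peaks, with signal values of 23.6, 22.8 and 22.4 at 216 bp upstream, 478 bp downstream and 164 bp downstream. The replicates differed there. Replicate 1 had a peak 219 bp upstream at 29.6 (rank 484, IDR 0.0891), while the strongest peak of replicate 2 was 478 bp downstream at 18.4 (rank 11776).

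cpar-1 (WBGene00010036, chromosome III, 9434057 to 9435100, plus strand) encodes a second CENP-A-like protein, found on meiotic chromosomes. Its strongest ranked peak lay 229 bp upstream, with a signal value of 29.6 (rank 11127 of 89784, IDR 0.412). Replicate 2 had it at 13.95 (rank 26577), and replicate 1 had no ranked peak within 500 bp. No thresholded list held a peak within 1000 bp of cpar-1, unlike hcp-3. Within 500 bp neither paralogue had a thresholded peak, and the strongest ranked value was higher at cpar-1 (29.6) than at hcp-3 (23.6). Their thresholded calls were thus unlike only in the wider window, a difference that 2 samples do not allow to be tested.

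Among the H3.3-like genes his-72 stood highest. his-72 (WBGene00001946, chromosome III, 12367475 to 12369050, minus strand) is, with his-71, a main source of H3.3 in the worm. Its peak (chrIII:12368999-12369228) was intergenic, 64 bp upstream of the outer 5' end, with a signal value of 45.7, rank 1266 of 89784. The global IDR was 0.0511 between the true replicates and 0.0181 in the pooled data, so it missed the 0.01 of the thresholded lists in both. It also just missed a limit of 0.05, under which 2.66% of protein-coding genes had a peak and htz-1 remained the only variant gene.

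The replicates differed at his-72. Replicate 2 had a peak 74 bp upstream with a signal value of 30.5 (rank 1004, IDR 0.834), and replicate 1 one 72 bp downstream with 15.9 (rank 8078, IDR 0.332), 146 bp apart. By signal rank the high place of his-72 therefore rests mostly on replicate 2, though the IDR was far above 0.01 in the lists of both replicates. At the inner 5' end of the shorter annotated transcript, within the gene, the ranked peaks had 20.6 and 16.6, both below the value at the outer end. The snoRNA gene Y49E10.36, which lies in an intron of his-72, overlaps the summit of the first of these.

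The other 4 H3.3-like genes had only weak ranked peaks, and all 4 had their strongest summit downstream of the 5' end, inside the gene. his-71 (WBGene00001945, chromosome X, 7981382 to 7982070) had 27.7 (rank 14568, IDR 0.6) 77 bp downstream in the coding exon, in replicate 1 alone 13.1, and none in replicate 2. his-69 (WBGene00001943, chromosome III, 4058360 to 4058743) had 30.4 (rank 9795, IDR 0.557) 282 bp downstream in the coding exon, in replicate 2 alone 18.2, and none in replicate 1. Its neighbour his-70 (WBGene00001944, chromosome III, 4059715 to 4060119) had 28.3 (rank 13321, IDR 0.475) 159 bp downstream, with 11.3 in replicate 1 and 13.0 in replicate 2 at summits 149 bp apart. Each of these genes was thus missing from 1 replicate or had peaks at different places in the 2.

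his-74 (WBGene00012276, chromosome V, 12659704 to 12660330) had the lowest value of the 8, 21.2 (rank 33686, IDR 0.658), in an intron 326 bp downstream. Replicate 1 gave 14.6 at 317 bp downstream and replicate 2 gave 13.1 at 117 bp downstream. A stronger ranked peak lay 760 bp from its 5' end, at 36.8 (rank 3756, IDR 0.112), in the 5' UTR of the neighbouring gene ccch-3. It did not reach a thresholded list.

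**Figure D2:**
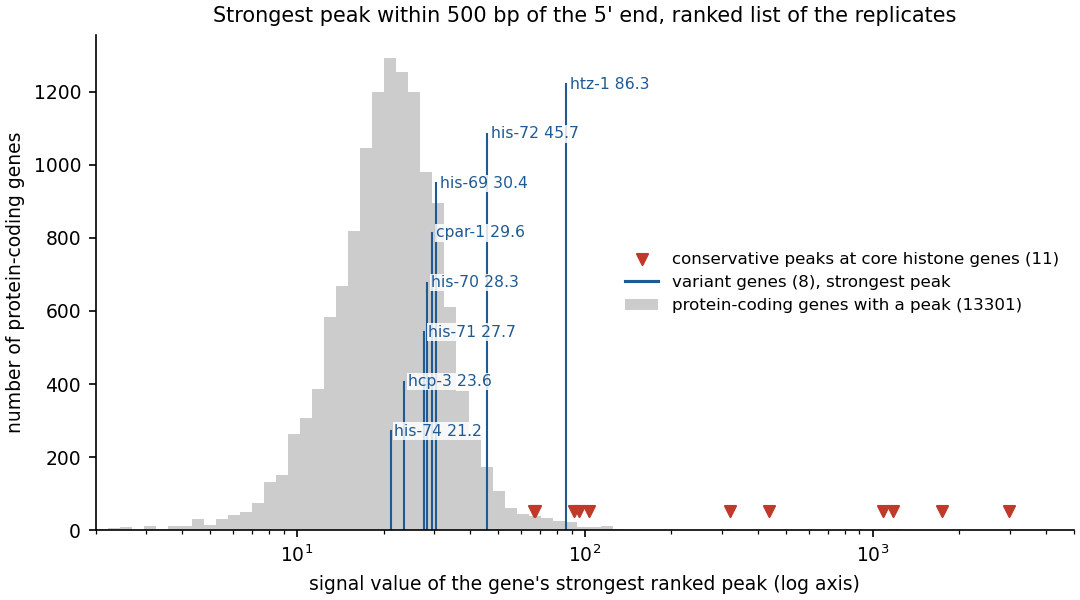
Histogram of the signal value (x axis, log scale) of the strongest ranked peak within 500 bp for 13301 protein-coding genes, with blue lines for the 8 variant genes and red triangles for the 11 distinct conservative peaks at core histone genes. Of the variant genes 6 lie between 21.2 and 30.4 in the body of the histogram, his-72 (45.7) and htz-1 (86.3) lie in its right tail, and 9 of the 11 core histone peaks lie to the right of htz-1.

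All 8 variant genes had a peak of some kind in the full ranked list of the true replicates. So did 66.6% of protein-coding genes, because that list holds 89784 peaks, or 895 per Mb. The pooled ranked list also had all 8 (background 69.8%), that of replicate 1 had 6 (47.7%) and that of replicate 2 had 7 (45.2%). In each of the 4 lists the share of the variants was above that of protein-coding genes, a difference over 8 genes that was not tested. The 4 lists are not independent. Those of the true replicates and of the pooled data draw on both replicates and give the same signal value for the strongest peak of each variant gene. Ranked by their signal among the 13301 protein-coding genes with a peak, htz-1 stood at the 99.4th percentile, his-72 at the 96.5th, his-69 at the 81.7th, cpar-1 at the 79.5th, his-70 at the 76.5th, his-71 at the 74.7th, hcp-3 at the 60th and his-74 at the 48.9th. The median of the 8 signal values was 29.0 and that of the 13301 was 21.4. From his-69 down to his-71 the signal values spanned only 30.4 to 27.7, and these 4 genes cannot be ordered given the differences between the replicates.

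**Figure D3:**
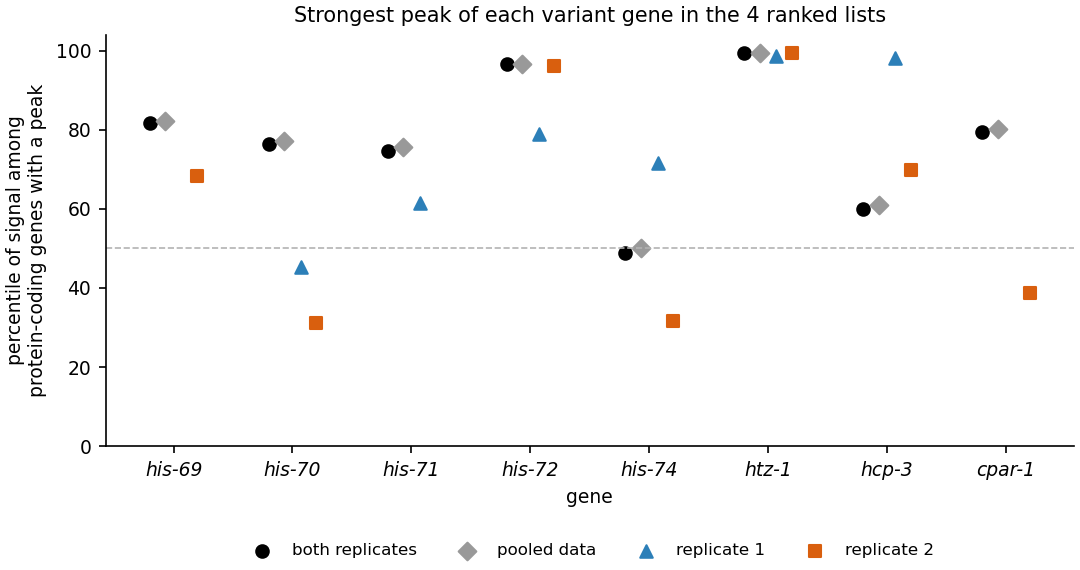
Percentile of the signal value of each variant gene's strongest peak among protein-coding genes with a peak (y axis), in the ranked lists of both replicates, of the pooled data and of each replicate (a missing symbol means no peak within 500 bp). htz-1 lies at 98.6 or above in all 4 lists, while the widest ranges are those of his-70 (31.2 to 77.2) and cpar-1 (38.6 to 80.2). The 4 lists share data, so the symbols of a gene are not independent.

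The percentiles in the single replicates were as follows. The conservative list keeps peaks that rank alike in these replicates, so closeness at htz-1 was fixed by its being in that list. htz-1 was at the 98.6th percentile in replicate 1 and the 99.3rd in replicate 2. The pairs were 78.8 and 96.0 for his-72, 98.1 and 69.7 for hcp-3, 71.7 and 31.7 for his-74, and 45.4 and 31.2 for his-70. The other 3 genes had a peak in 1 replicate only. Summits of the strongest peaks in the 2 replicates were 146 to 697 bp apart at these 4 genes, so the pairs of values there need not belong to the same peak. The core histone peaks of the conservative list were chosen by the same filter as the htz-1 peak. The best placed, between his-67 and his-68, had ranks 4 and 2. The lowest places were 517 in replicate 1, between his-17 and his-18, and 382 in replicate 2, at a copy of his-47.

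**Figure D4:**
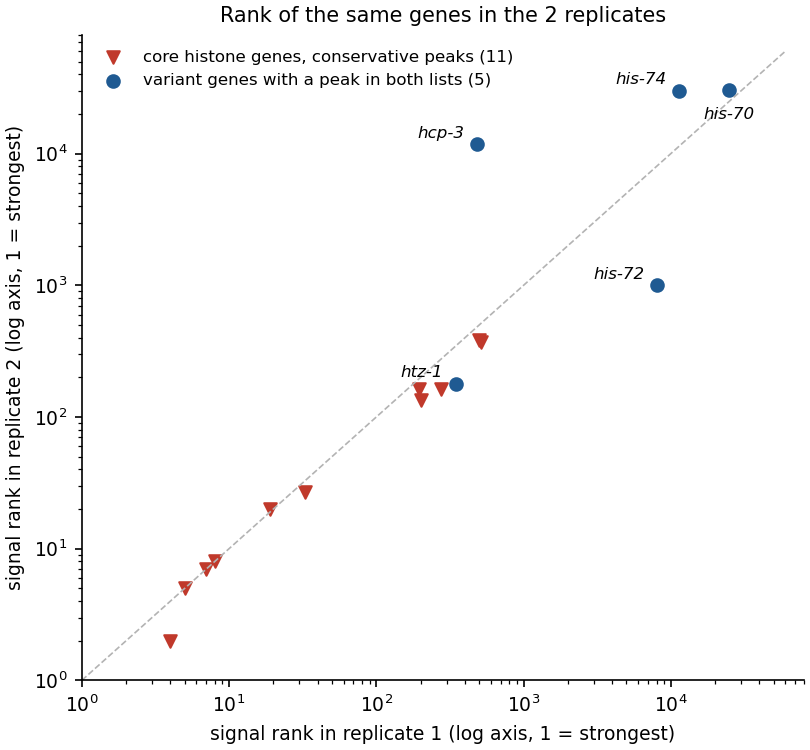
Signal rank in replicate 1 (x axis) and replicate 2 (y axis), both on log axes, for the 11 core histone peaks (the strongest overlapping peak in each replicate) and for the strongest peak within 500 bp at the 5 variant genes with one in both lists, which need not be the same peak. The dashed line marks equal rank, to which the core histone peaks and htz-1 had to lie near because the conservative list was chosen on it. htz-1 (346 and 179) lies with the weaker core histone peaks, hcp-3 (484 and 11776) and his-72 (8078 and 1004) lie far from the line.

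Set against the core histone genes, the signal value at htz-1 was among those of their weaker peaks. The 18 his- genes with a conservative peak shared 11 distinct peaks, since most are divergent pairs with 1 peak between them. Their signal values ran from 66.7 to 2984 with a median of 320.1, which is 3.71 times the value at htz-1. Of the 11, 9 were stronger than the htz-1 peak and 2 were weaker. The highest, between his-67 and his-68, had 2984, followed by the H4 gene his-37 with 1740, his-59 and his-60 with 1173, his-63 and his-64 with 1083, his-61 and his-62 with 438.2, and his-5 and his-6 with 320.1. These 6 and the peak at his-45 were in the thresholded lists of both replicates. The other 4 of the 11 were, like the htz-1 peak, in that of replicate 2 only.

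The core histone peaks nearest to htz-1 in strength were those at his-45 (91.6) above it and at a copy of his-47 (67.4) below it, both 479 bp or more downstream of the 5' ends. The peak between his-3 and his-4 had 95.8 and that between his-17 and his-18 had 66.7, both upstream of the 5' ends. In width, all of the 8 strongest ranked variant peaks had the width of 230 bp that 99.9% of ranked peaks have, and the htz-1 peak shared it with 540 of 567 conservative peaks. Of the 11 core histone peaks, 5 were wider, up to 478 bp, 5 were 230 bp and 1 was 151 bp wide.

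Repeated sequence, in which short reads can be hard to place, touched the comparison set but not the variants. The share of 31-base words found once in the genome, within 250 bp of the 5' end, was 0.989 or more at all 8 variant genes. It had a median of 0.618 at the 18 core histone genes with a conservative peak and of 0 at the 48 without one. The range was 0 to 0.996 in the former and 0 to 1 in the latter. The share was measured within 250 bp of the 5' end, whereas a peak could lie up to 500 bp away. It therefore need not describe the sequence under a peak, and the effect of repeats on the calls was not tested. Only 4 of the 66 core genes had a share of 0.9 or more, and 2 of these 4 had a conservative peak. Within 250 bp of their 5' ends, the variant genes without a conservative peak thus lie in unique sequence. In position the variants were like other genes, as 4 of the 8 strongest summits were upstream of the 5' end, against 45.8% over protein-coding genes, and the median distance was 222 bp in both.

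Genes that act with the variants had conservative peaks at lin-53 and knl-3. Of 53 annotated genes in 4 lists of chaperones, remodellers, kinetochore proteins and further variants, 2 had a conservative peak and 3 an optimal one, where the background shares were 1.32% and 1.48%, and 44 had a ranked peak, where the background was 66.6%. With counts this small no difference from the background is read. Among 14 histone chaperone genes the conservative peak was at lin-53, which encodes an RbAp46/48 histone-binding protein, with a signal value of 63.8 (IDR 0.00232) 261 bp upstream. Next were unc-85, an ASF1 chaperone for H3 and H4, with 46.8 (IDR 0.134), nap-1 with 33.5 and chaf-2, of the CAF-1 complex, with 30.0. The H3.3 chaperone gene hira-1 had only 21.1 (IDR 0.696) in the ranked list. Neither lin-53 nor any other of the 14 was in a thresholded list of 1 replicate.

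Among 24 genes for CENP-A loading and the kinetochore, knl-3, a component of the outer kinetochore, had the only conservative peak, with a signal value of 61.5 (IDR 0.00297) 407 bp upstream. Like lin-53, knl-3 was in no thresholded list of a single replicate. It was followed by spdl-1 with 37.3, hcp-1 with 35.03 and icp-1 with 31.3 in the ranked list. knl-2, needed for loading of CENP-A, had no ranked peak within 500 bp, and hcp-4, the worm CENP-C, had 17.5. Of the 12 annotated genes listed under SWR1 and INO80 type remodelling, which include the remodellers that exchange H2A for H2A.Z, none had a thresholded peak. The list is broad, and not every gene in it need belong to these 2 complexes. The highest were ekl-4 with 42.6 (IDR 0.0704), epc-1 with 37.8, mrg-1 with 28.5 and ruvb-1 with 27.4, and the remodeller gene ssl-1 had no ranked peak. The H2A gene his-35 had the optimal peak, at 50.8 (IDR 0.0117 between the true replicates) 204 bp upstream, and it was also in the thresholded list of replicate 1. The H3-like his-73 had 19.3, and the H2A variant gene htas-1 had no ranked peak.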

How the data were processed

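ChIP-seq peak lists of 2 biological replicates of 1 group were the starting point. The labels give sonication and a size range of 200 to 800 bp. The authors deposited 8 peak lists on ce11, 4 thresholded and 4 ranked by IDR. Per the file headers, each was made from filtered alignments, either of a single replicate or of both, and another input. The aligner and peak caller were not given in the sources used here. The deposited signal value is the authors' peak caller's, of unstated scaling. The deposited ranked lists give the −log10 of the global IDR. In the 4 ranked lists, 32 columns of unnamed peak sets were not used. The ranked list that holds all conservative peaks at IDR 0.01 or less was taken as that of the true replicates, and the one that holds all optimal peaks as that of pooled data.

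Genes and 5' ends came from Ensembl release 115, sequence from RefSeq WBcel235, within whose chromosome lengths all peaks lay. A gene had a peak when a summit lay within 500 bp of its outermost 5' end. Ranks are by signal within a list. Percentiles are among protein-coding genes with a peak in that list. Assignment was tested on simulated peaks planted singly at genes far from other protein-coding 5' ends, so crowded or shared 5' ends were not covered. Depth is unknown from these files and limits which peaks could pass. With 2 samples of 1 group there is no test, and values are descriptions. The members, gene lists, words and alternatives were chosen with earlier results of these data known. Named genes were all members, the 6 strongest core histone peaks, pathway genes with a thresholded peak or the 4 highest, and the 3 genes nearest to htz-1 in percentile; hira-1, hcp-4, knl-2, ssl-1, his-73, htas-1, ccch-3, Y49E10.36 and the core histone genes near htz-1 in signal were named after their values were seen. ino-80 was not found by name. Python 3.11.15, numpy 2.4.6, pandas 2.3.3 and matplotlib 3.10.9 were used.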

Additional observations from a re-analysis of the deposited data

How the results depend on the processing

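No paired analysis was possible because both libraries belong to 1 group. Of 83 alternative values, 53 stayed within 1.5 times the count or within the spread between the replicates. The count of variant genes with a conservative peak, 1 as reported, was 0 with a window of 250 bp and 2 with 1000 bp, and it was 0 to 1 when 1 replicate was left out, 0 without replicate 2. It was 1 with the 5' ends of all transcripts, any overlap, the optimal list and IDR limits of 0.05 and 0.001. The count of chaperone, remodeller, kinetochore and further variant genes, 2 as reported, was 0 with a window of 250 bp and 0 at an IDR of 0.001. With 1 replicate left out it was 0 to 1, and the 1 was his-35, in the list of replicate 1. Neither lin-53 nor knl-3, the 2 as reported, was in the thresholded list of a single replicate. The median percentile of the variant genes, 78.0 as reported, was 68.2 to 75.3 with 1 replicate left out. Of 44 alternative percentiles of single genes 22 moved. Of these, 14 were of his-69, his-71 and cpar-1, which had no spread between replicates and were held to a narrow binomial interval, so that shifts as small as 81.7 to 82.3 were counted. Among the others, htz-1 moved to 15.9 with 250 bp, and hcp-3 to 99 and his-74 to 89 with 1000 bp. The count of other his- genes stayed between 14 and 24 in all alternatives run. The lists of single replicates are shorter than the joint lists, and the cause of lost peaks was not tested.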
